A study of Mus musculus with 2 samples.

Results

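The genes described here are 10 genes of iron storage, uptake and export in adult mouse kidney, chosen by name out of 43346 genes in the tables: the ferritin chains Fth1 and Ftl1, the uptake genes Tfrc and Slc11a2, the export genes Slc40a1 and Heph, the hormone gene Hamp, and the sensor genes Aco1, Ireb2 and Fbxl5. All 10 were found by symbol in both gene tables. Kidneys of the inbred strain C57BL/6J were taken at 8 weeks of age, and the labels name no treatment and no mutant allele. The 2 libraries, replicate 1 and replicate 2 of 1 group, come from polyadenylated RNA depleted of ribosomal RNA. The labels describe male and female littermates pooled in each sample, 1 donor label for both and a health state that is unknown. The SDs therefore measure only the spread between these libraries. The libraries also differ in markers of other tissues, as given below, and whether the spread is technical was not tested. With 1 group, the data allow a description of levels and isoforms and a comparison of the libraries.

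Cells take up transferrin-bound iron through the transferrin receptor (Tfrc), move iron across membranes through DMT1 (Slc11a2), store it in ferritin shells of heavy (Fth1) and light (Ftl1) chains, and release it through ferroportin (Slc40a1). The regulatory proteins IRP1 (Aco1) and IRP2 (Ireb2) bind stem-loops called iron responsive elements when iron is scarce, which blocks translation where the element lies in the 5′ UTR and protects the transcript where it lies in the 3′ UTR. FBXL5 marks IRP2 for destruction when iron is plentiful, and hepcidin (Hamp), made mainly in liver, removes ferroportin from the cell surface. In the kidney, tubule cells take back filtered iron, including iron bound to transferrin.

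The gene totals were 67252609 expected counts in replicate 1 and 87330097 in replicate 2, so 3 counts stand for 0.0446 and 0.0344 CPM (counts scaled to a common library total). The 7 kidney markers were all detected, with a summed level of 10605 TPM (a level per transcript length, scaled to a common total) in replicate 1 and 7257 in replicate 2. The libraries differed in markers of other tissues. The 5 skeletal muscle markers summed to 14.9 and 690.1 TPM in replicates 1 and 2, the 5 lymphocyte markers to 15.6 and 80.0 TPM, and the 4 adrenal markers to 35.95 and 0.55 TPM. Most of the muscle sum in replicate 1 was Pvalb alone, at 12.9 TPM, against 35.3 TPM in replicate 2. No marker of any list was at 0 in both libraries. Of 4 Y-linked genes, all 4 had 0 counts in replicate 1, and 3 had 0 in replicate 2, where Kdm5d had 3 counts, whereas Xist had 18989 and 30696 counts. These values go against the label of pooled sexes, and no result below is read by sex.

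The elements are shown first, since they distinguish the members and the isoforms described below. Annotated transcripts of GENCODE M21 (GRCm38, the build also called mm10) were searched on the sense strand for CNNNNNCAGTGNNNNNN, with 5 bases on either side of the loop able to pair and at most 1 unpaired base on the 3′ side. Capitals mark the bulged C and the loop of 6 bases, and each window has 30 bases.
Fth1, 5′ UTR, chr19:9982732-9982761, plus strand: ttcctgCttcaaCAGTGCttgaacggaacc
Ftl1, 5′ UTR, chr7:45459778-45459807, minus strand: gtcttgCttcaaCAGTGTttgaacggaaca
Slc40a1, 5′ UTR, chr1:45925464-45925493, minus strand: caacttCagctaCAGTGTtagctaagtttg
Tfrc, 3′ UTR, chr16:32631219-32631248, plus strand: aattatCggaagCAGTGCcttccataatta
Tfrc, 3′ UTR, chr16:32631598-32631627, plus strand: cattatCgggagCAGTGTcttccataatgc
Tfrc, 3′ UTR, chr16:32631663-32631692, plus strand: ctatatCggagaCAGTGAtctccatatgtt
Tfrc, 3′ UTR, chr16:32631710-32631739, plus strand: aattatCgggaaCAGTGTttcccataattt
Slc11a2, 3′ UTR, chr15:100395152-100395181, minus strand: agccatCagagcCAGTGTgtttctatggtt

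Of the 10 members, 5 held a match in a UTR, and Heph, Hamp, Aco1, Ireb2 and Fbxl5 held none in any annotated transcript searched. A match anywhere in a transcript was found in 7.60% of 12273 detected protein-coding genes, and in 2.22% when no unpaired base was allowed. The ferritin elements are nearly the same sequence, with 26 of 30 bases identical. The Tfrc elements shared 18 to 25 bases with each other and 9 to 11 with that of Fth1. The Slc11a2 element needed the 1 unpaired base, and the other 7 paired without it. Ferritin, ferroportin, the transferrin receptor and DMT1 are textbook carriers of these elements, so the count describes the chosen genes and is no finding about them. A match shows no binding.

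**Figure D1:**
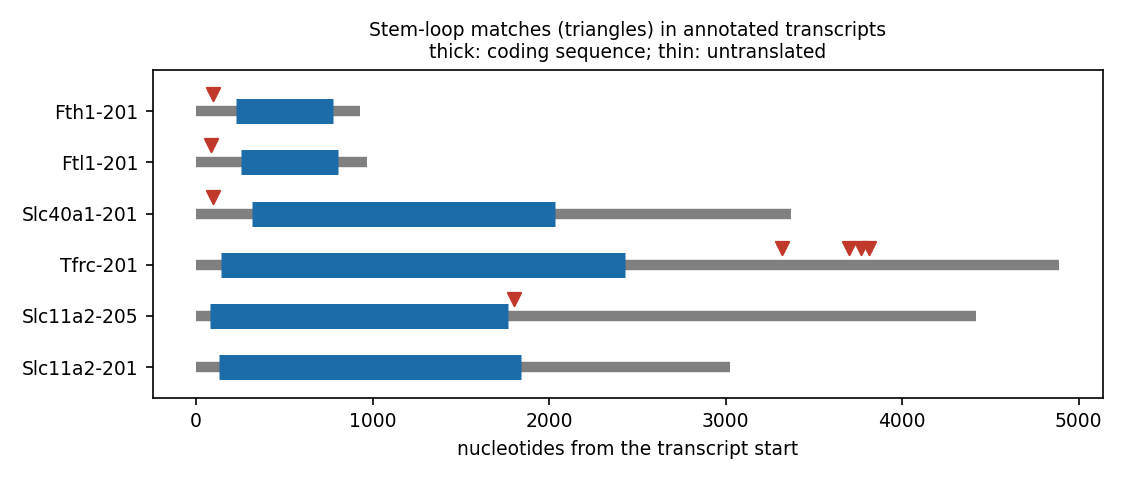
Positions of stem-loop matches (red triangles) along annotated transcripts of the members that hold one, in nucleotides from the transcript start, with coding sequence thick and untranslated sequence thin. The matches of Fth1, Ftl1 and Slc40a1 lie 93, 84 and 96 nucleotides from the start, those of Tfrc lie in the long 3′ UTR, and Slc11a2-205 has 1 match where Slc11a2-201 has none.

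In Fth1-201, Ftl1-201 and Slc40a1-201 the bulged C lay at nucleotides 93, 84 and 96, which is 132, 170 and 224 bases before the coding sequence. The deposited tables give Fth1-201 a length of 866 nt, and the annotation searched gives 929 nt. In Tfrc-201, of 4890 nt, the 4 matches lay 889, 1268, 1333 and 1380 bases after the coding sequence. In Slc11a2-205 the match began 38 bases after the coding sequence.

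Of the 10 members, 9 were detected at 1 TPM or more in both libraries, and 57.2% of 21474 protein-coding genes were. Ferritin transcripts stood far above the rest, and hepcidin transcripts were at or below the limit of detection. In order of mean level, Ftl1 came first, followed by Fth1, Aco1, Slc11a2, Fbxl5, Slc40a1, Tfrc, Ireb2, Heph and Hamp. The libraries of Fbxl5 and Slc40a1 overlapped, as did those of Tfrc and Ireb2, and no other neighbours in this order did. In whole tissue, fewer cells of a type and less RNA per cell cannot be told apart.

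**Figure D2:**
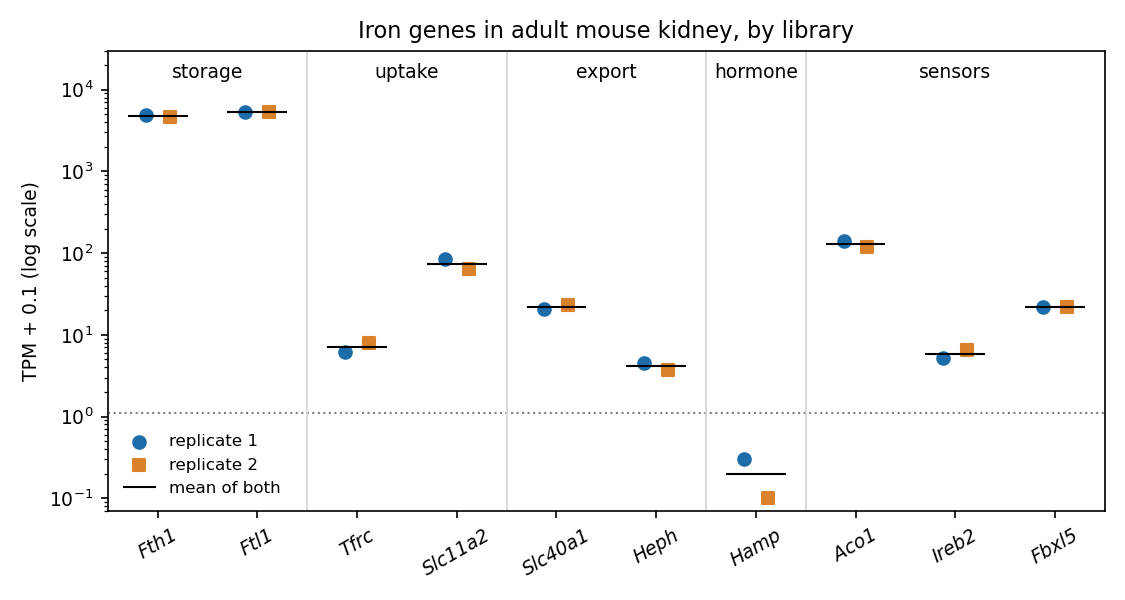
Level of each member in replicate 1 (circles) and replicate 2 (squares), with the mean of both as a line, as TPM + 0.1 on a log scale, grouped by role. The ferritin chains lie highest, between 4661 and 5404 TPM, Hamp lies below the dotted line at 1 TPM, and the libraries lie close together for each detected member.

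Storage genes had the highest levels. Ftl1, the ferritin light chain that aids mineral formation (chr7:45457944-45459884, minus strand), measured 5341 TPM in replicate 1 and 5404 TPM in replicate 2. Its mean of 5373 ± 44.7 TPM (SD, n = 2) ranked 14 among the 12273 detected protein-coding genes. Fth1, the heavy chain with the ferroxidase site (chr19:9980598-9985098, plus strand), measured 4859 TPM in replicate 1 and 4661 TPM in replicate 2. With 4760.1 ± 139.5 TPM (SD, n = 2) it ranked 17, and both of its libraries lay below both libraries of Ftl1.

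Transcripts of the chains were present in nearly equal amounts, and chain protein was not measured. The ratio of Fth1 to Ftl1 was 0.910 in replicate 1 and 0.863 in replicate 2 (0.886 ± 0.0333, SD, n = 2). Together they held 1.02% and 1.01% of all TPM in replicates 1 and 2.

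Ftl1 was the only member with near-identical copies, defined as genes with at least 50% of the 31-base words of their longest transcript in transcripts of a member. Of 4 such genes, Ftl1-ps1 on chromosome 13 was the highest, with 109.8 TPM in replicate 1 and 50.2 TPM in replicate 2. The pseudogene Gm15590 followed at 2.40 and 1.57 TPM, Ftl2-ps was at 0.27 TPM in replicate 1 and listed at 0 in replicate 2, and Gm22133, a miRNA gene inside Ftl1, was listed at 0 in both. The copies together came to 2.10% and 0.958% of the TPM of Ftl1. Reads could be split between Ftl1 and these copies, so the levels of the copies are uncertain.

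Uptake genes differed widely in level. Slc11a2, which encodes the divalent metal transporter DMT1 (chr15:100387898-100425072, minus strand), measured 83.5 TPM in replicate 1 and 64.3 TPM in replicate 2 (73.9 ± 13.6, SD, n = 2). Tfrc, the transferrin receptor (chr16:32608920-32632794, plus strand), measured 6.08 TPM in replicate 1 and 7.94 TPM in replicate 2 (7.01 ± 1.32, SD, n = 2). The groups of values do not overlap, and Slc11a2 was 13.7 and 8.10 times the level of Tfrc in replicates 1 and 2.

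Export genes were lower than Slc11a2. Slc40a1, which encodes ferroportin, the known exporter of iron from cells (chr1:45908068-45926523, minus strand), measured 20.7 TPM in replicate 1 and 22.8 TPM in replicate 2 (21.8 ± 1.51, SD, n = 2). Heph, which encodes hephaestin, a membrane ferroxidase that works with ferroportin (chrX:96455359-96574485, plus strand), was at 4.45 and 3.65 TPM (4.05 ± 0.566, SD, n = 2). Macrophages also carry ferroportin, and the 7 macrophage markers summed to 145 TPM in replicate 1 and 183 in replicate 2, with 6 detected. Most of the gap between these sums came from Lyz2, at 34.2 and 70.1 TPM, and C1qb was higher in replicate 1 (40.2 and 38.7 TPM). The part of macrophages in the level of Slc40a1 was not tested.

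Hamp (chr7:30942368-30944032, minus strand) had 2 expected counts in replicate 1 and 0 in replicate 2, which is 0.20 TPM and a listed value of 0. The 2 counts correspond to 0.0297 CPM with an exact 95% binomial interval of 0.0036 to 0.107. For the count of 0 in replicate 2 the same interval reaches up to 0.0422 CPM, and the floor of 3 counts stands at 0.0344 CPM. These limits cover counting error only. Of the liver markers, 4 of 5 were detected, with a sum of 29.8 TPM in replicate 1 and 27.1 in replicate 2. Hamp was therefore not detectable above these limits.

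The 3 sensor genes spanned a wide range. Aco1, the cytosolic aconitase that becomes IRP1 when it loses its iron-sulfur cluster (chr4:40143081-40198338, plus strand), measured 140.1 TPM in replicate 1 and 118.7 TPM in replicate 2 (129 ± 15.1, SD, n = 2). Ireb2, which encodes IRP2 (chr9:54863789-54912530, plus strand), was at 5.11 and 6.37 TPM (5.74 ± 0.891, SD, n = 2). Aco1 was thus 27.4 and 18.6 times the level of Ireb2 in replicates 1 and 2. Fbxl5, the iron-binding subunit of the ligase that degrades IRP2 (chr5:43744615-43821638, minus strand), was at 22.0 and 21.9 TPM (21.9 ± 0.106, SD, n = 2). In TPM this was the smallest spread of any detected member relative to its level. In scaled counts, compared below, Aco1 differed least between the libraries.

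Slc11a2 transcripts were split between a form with the 3′ UTR element and a form without it. Slc11a2-205 (4415 nt, 561 codons, 3′ UTR of 2650 bases) holds the element and took 30.9% of the gene's TPM in replicate 1 and 32.3% in replicate 2 (31.6% ± 0.976, SD, n = 2). Slc11a2-201 (3025 nt, 568 codons, 3′ UTR of 1186 bases) has no match and took 36.4% and 40.6%. Their levels were 25.8 and 20.8 TPM for the form with the element and 30.4 and 26.1 TPM for the form without it.

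Short transcripts took the rest of the TPM. Slc11a2-207, of 389 nt, which starts 1212 bases upstream of Slc11a2-205, had 15.2% in replicate 1 and 16.2% in replicate 2. Slc11a2-206, a transcript of 709 nt with a retained intron, had 11.6% and 6.93%. The 6 transcripts other than the long forms held 32.7% and 27.2% of TPM but only 4.64% and 3.40% of expected counts, since TPM divides counts by length.

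By expected counts, the form with the element held the larger share, with 53.3% in replicate 1 and 52.4% in replicate 2, against 42.1% and 44.2% for the form without it. Of the TPM of the long pair alone, it held 45.9% and 44.3%. By fragments, the form with the element, which is longer (4415 against 3025 nt), thus came first. In TPM, which divides counts by length, the form without it came first in both libraries. The antisense neighbour Gm5475 overlaps Slc11a2 at 0.92 and 0.81 TPM.

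**Figure D3:**
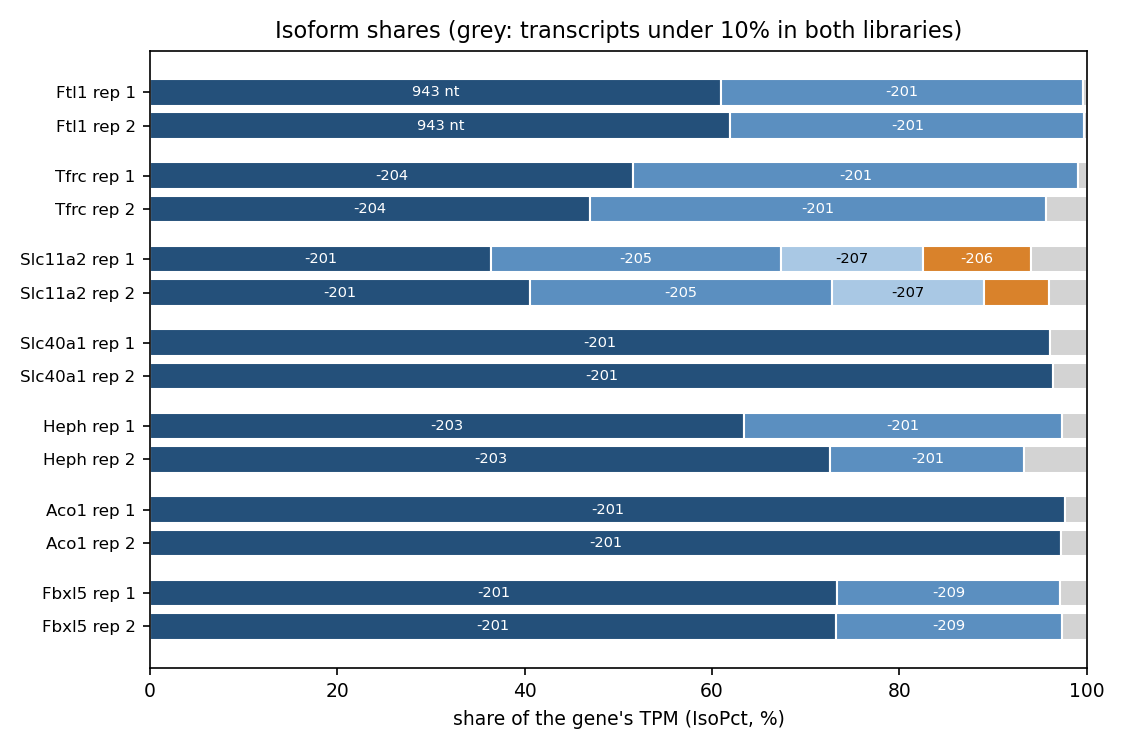
Share of the gene's TPM (IsoPct, in percent) of each transcript at 10% or more in either library, for the 7 detected members with several annotated transcripts, with replicate 1 above replicate 2. Slc11a2 is divided among 4 such transcripts, Aco1 and Slc40a1 have 1 each, and Tfrc has nearly equal shares of 2.

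Tfrc was shared between the coding Tfrc-201 and Tfrc-204, a transcript of 3527 nt with a retained intron and the same 4 stem-loops. Tfrc-204 led in replicate 1, with 51.5% against 47.6% for Tfrc-201, and the order turned in replicate 2, with 47.0% against 48.7%. The deposited SD of the estimated counts was 32.4 of 558 and 44.7 of 923 for Tfrc-204 in replicates 1 and 2. For Tfrc-201 it was 35.0 of 728 and 52.3 of 1347, so which form leads in TPM is loosely determined. By expected counts Tfrc-201, the longer form at 4890 nt, led in both libraries, with 56.5% and 58.4%. Of the 7 detected members with several transcripts, Tfrc was the only one whose leading isoform differed between libraries, and 11.7% of 9388 such genes differed in this way.

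Heph-203 took 63.4% of Heph in replicate 1 and 72.6% in replicate 2, and Heph-201 took 34.0% and 20.7%. The shift of 13.3 percentage points was the widest among the members, and 23.1% of such genes shifted by more. The forms encode the same 1157 codons, and the deposited SD of their estimated counts was 79.6 of 667 and 80.8 of 868 for Heph-203, so the split itself is loosely determined.

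The remaining members were steady. Fbxl5-201 held 73.3% and 73.2% of Fbxl5 and Fbxl5-209 held 23.8% and 24.2%. Slc40a1-201 held 96.1% and 96.4%, and Aco1-201 held 97.7% and 97.3%. Ftl1 was led by a transcript of 943 nt at 60.95% and 61.96%, whose sequence was not analysed here, with Ftl1-201 at 38.6% and 37.8%. Fth1, Ireb2 and Hamp have 1 transcript each in the tables.

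No member differed between the libraries by the exact binomial test on scaled counts with an adjusted p below 0.05 and an absolute log2 ratio of 1 or more (0 of 9 tested), and 8.21% of 18723 genes tested did. Of the genes tested, 2.59% were called higher and 5.62% lower in replicate 1, and among detected genes 1.87% were called in either direction. This test compares the reads of 2 libraries, not conditions. At an unadjusted p below 0.05 with no ratio minimum, all 9 passed, as did 11403 of the genes tested, and at an adjusted p below 0.05 all 9 passed, as did 57.5%. At this depth, small ratios pass the p threshold, so the size of the ratio carries the description.

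**Figure D4:**
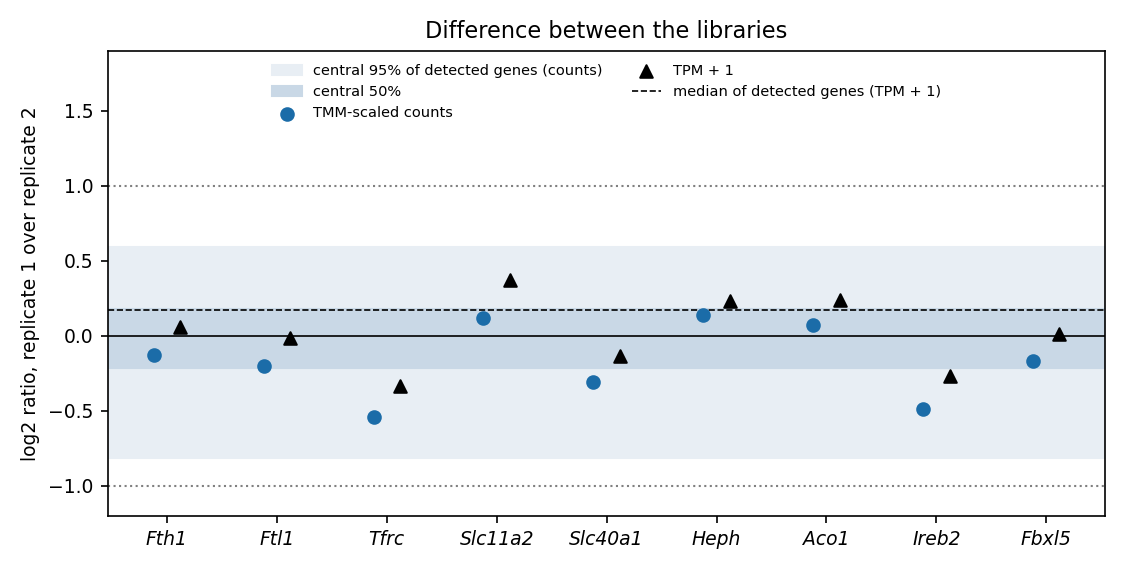
Log2 ratio of replicate 1 over replicate 2 for the 9 detected members, from TMM-scaled counts (circles) and from TPM + 1 (triangles), with the central 95% and 50% of detected genes shaded for counts. Tfrc and Ireb2 lie lowest, and no member reaches the dotted lines at a log2 ratio of 1 in either direction.

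The ratios were mostly small. The median absolute log2 ratio of the 9 members was 0.17 in counts, against 0.19 for all detected genes. In counts Tfrc had the largest, −0.54 (1287 counts in replicate 1 and 2305 in replicate 2), followed by Ireb2 at −0.49 (1536 and 2654 counts). Among detected genes, 9.90% and 12.4% had a larger absolute log2 ratio in counts than Tfrc and Ireb2.

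Slc40a1 had a log2 ratio of −0.31, Ftl1 −0.21, Fbxl5 −0.17, Fth1 −0.13, Aco1 0.07, Slc11a2 0.12 and Heph 0.14. In TPM the median ratio of all detected genes was itself shifted by 0.17, and the signs of Fth1 (0.06) and Fbxl5 (0.01) turned. Slc11a2 then had the largest absolute log2 ratio, 0.37, ahead of Tfrc (−0.34) and Ireb2 (−0.27), so the order of the members by ratio depends on the scale. Slc11a2, Aco1 (0.24) and Heph (0.23) moved away from 0 in TPM, each by more than 1.5 times, and Ftl1 (−0.02), Slc40a1 (−0.14), Tfrc and Ireb2 moved toward it by more than that. Tfrc, Ireb2, Slc40a1 and Ftl1 were lower in replicate 1 on both scales. In TPM, markers of 4 other cell types or tissues were lower in replicate 1 too: all 5 red blood cell markers (sums of 7200 and 7695 TPM in replicates 1 and 2), all 5 skeletal muscle markers (14.9 and 690.1 TPM), all 5 lymphocyte markers (15.6 and 80.0 TPM) and 6 of 7 macrophage markers (145 and 183 TPM). Lyz2 held 34.2 and 70.1 TPM of the macrophage sums, and Pvalb held 12.9 and 35.3 TPM of the skeletal muscle sums. Slc11a2, Heph and Aco1 were higher in replicate 1 on both scales. In TPM, so were all 7 kidney markers, all 4 adrenal markers and 4 of 5 liver markers (29.8 and 27.1 TPM). In counts the liver markers Apoa2 (log2 ratio −0.09) and Fga (−0.08) turned. The part of these markers in the ratios of the members was not tested.

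A wider list of 47 iron genes was set beside the members. Of these, 36 were detected (76.6%), with a median level of 16.8 TPM, against 2.80 TPM over all protein-coding genes. The exact binomial test called 3 of 46 tested (6.52%), near the 8.21% of all genes tested. Of the 3, 1 was higher and 2 were lower in replicate 1, against 2.59% and 5.62% of all genes tested, and all 3 were below 1 TPM in at least 1 library.

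**Figure D5:**
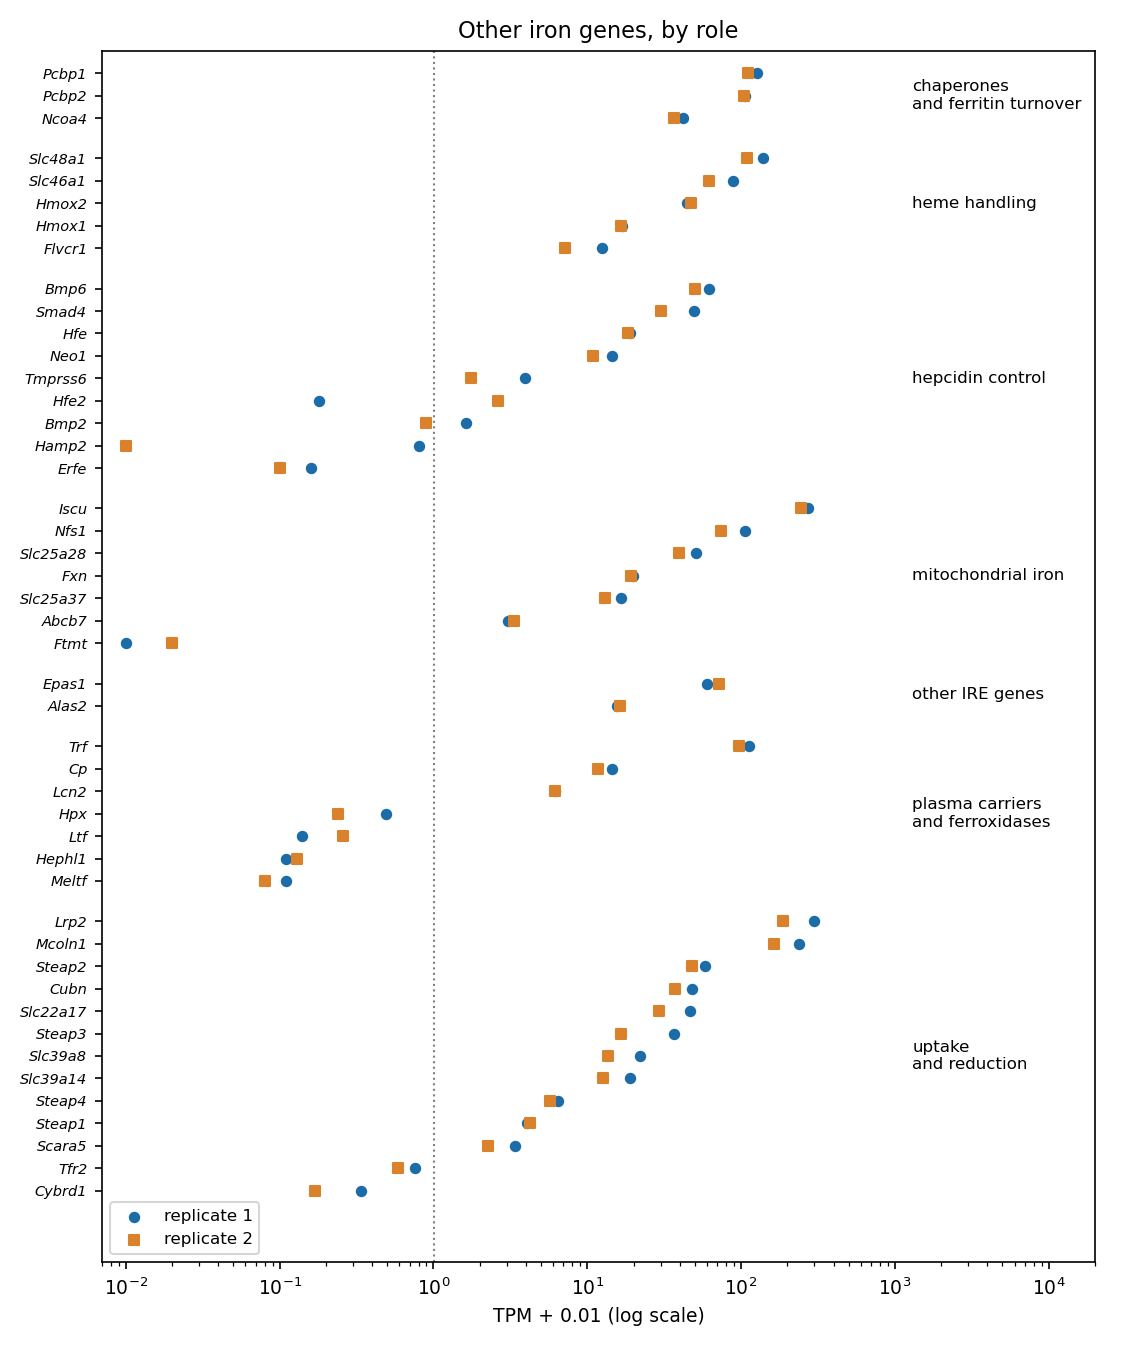
Levels of 46 other iron genes in replicate 1 (circles) and replicate 2 (squares) as TPM + 0.01 on a log scale, grouped by role. Most lie to the right of the dotted line at 1 TPM, and Hfe2 and Hamp2 show the widest gaps between libraries.

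Genes of uptake and reduction were detected in 11 of 13 cases. Lrp2, the tubular receptor megalin that takes up filtered proteins, was the highest with 299.8 TPM in replicate 1 and 187.5 TPM in replicate 2. Mcoln1, a channel of lysosomes, followed at 236.7 and 163.3 TPM, of which Mcoln1-201, of 2065 nt, held 98.8 and 74.4 TPM. As gene totals, Lrp2 and Mcoln1 both exceeded Slc11a2 in each library.

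All 3 chaperone and ferritin turnover genes were detected. The iron chaperones Pcbp1 (126.8 and 110.1 TPM in replicates 1 and 2) and Pcbp2 (106.3 and 105.3 TPM) were the highest. All 5 heme genes were detected, led by the heme transporter gene Slc48a1 at 138.9 and 108.9 TPM and by Slc46a1, a folate carrier also described for heme, at 88.4 and 61.7 TPM.

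Mitochondrial iron genes were detected in 6 of 7 cases. Iscu, the scaffold of iron-sulfur clusters, was at 273.6 and 244.8 TPM in replicates 1 and 2, and Nfs1, which supplies the sulfur, at 106.0 and 74.3 TPM. Of the other genes known for an iron responsive element, Epas1, a hypoxia-inducible factor, was at 59.8 and 72.0 TPM. A match in the 5′ UTR was found in Epas1 and in Alas2, the first enzyme of heme synthesis in red cell precursors. The Epas1 match needed the 1 unpaired base, and that of Alas2 paired without it.

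Plasma carriers and ferroxidases were detected in 3 of 7 cases. Trf, which encodes transferrin, was at 113.0 and 96.7 TPM in replicates 1 and 2, and Cp, which encodes ceruloplasmin, at 14.5 and 11.7 TPM. Of the Trf level, Trf-201, of 2571 nt, held 33.8 and 25.1 TPM, and the short Trf-206, of 563 nt, held 51.9 and 45.7 TPM. Ltf, the lactoferrin gene, was called on 18 and 48 counts (log2 ratio −1.11, exact binomial adjusted p = 0.00859).

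Of 9 hepcidin control genes, 5 were detected. Bmp6, the ligand that induces hepcidin in liver, was at 61.5 and 50.4 TPM in replicates 1 and 2, and Smad4 at 49.5 and 30.1 TPM. Of the Smad4 level, Smad4-205, a transcript of 917 nt without coding sequence, held 28.1 and 15.1 TPM. In scaled counts the log2 ratio of Smad4 was only 0.04. Hfe2, which encodes hemojuvelin and is also expressed in skeletal muscle, had a level of 0.17 TPM in replicate 1 against 2.60 TPM in replicate 2 (17 and 353 counts, log2 ratio −4.08, exact binomial adjusted p = 3.09e-67). The summed skeletal muscle markers moved the same way, at 14.9 and 690.1 TPM, of which Pvalb held 12.9 and 35.3 TPM. The part of these markers in the Hfe2 result was not tested. Hamp2, the second hepcidin gene of the mouse, had 10 counts in replicate 1 and 0 in replicate 2. Against a floor of 3 counts in replicate 2, the scaled level was 4.11-fold higher in replicate 1. This value takes the 10 counts as exact and is therefore no lower limit.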

How the data were processed

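The 2 kidney libraries of 1 group were analysed from gene and transcript tables. Text records deposited with these tables name the build mm10 and the annotation M4. For the aligner and the quantification software, the name is not given in the sources used here. Per library, the authors deposited expected counts (estimated fragments), TPM and FPKM per the file headers, and the transcript tables give IsoPct, the percent of the gene's TPM. The deposited SD of each estimated count, and effective length, are signal values of the quantification. Gene names, positions and transcript sequences came from GENCODE M21, which gave symbols for 42462 of 43346 genes. The 26248 rows with numeric identifiers (0 counts) and 97 spike-in rows (1.59% and 2.29% of counts in replicates 1 and 2) stayed out of library sizes and tests.

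Genes at 1 TPM or above in each library counted as detected. Expected counts were rounded and scaled by TMM (edgeR 4.0.16, R 4.3.3, factors 1.03 and 0.974). A two-sided exact binomial test (scipy 1.17.1) was run on genes with 10 or more counts in sum, with Benjamini-Hochberg adjustment over all 18723 genes. A prior count of 0.5 entered only the log2 ratio of genes with 0 counts in a library. Ratios of TPM used a pseudocount of 1. The test was checked on simulated counts drawn with counting error only, so the check does not cover further spread between libraries. DESeq2 1.42.0 size factors and other settings served as alternatives. Intervals and floors (3 counts) cover counting error only. All members are named, with the 2 highest genes and all called genes of each role of the wider list. A gene of that list that this rule would name is not reported here, though the list's counts include it. The members and lists were chosen with earlier results of these data known. The mm9 junction and contig tables were not used here.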

Additional observations from a re-analysis of the deposited data

How the results depend on the processing

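The count of detected members was 8 at 5 TPM and 9 under posterior mean TPM, FPKM, a minimum of 0.1 TPM or either library alone (9 to 9), and the wider list gave 32 at 5 TPM and 37 to 37 with either library alone. No member was called under DESeq2 size factors, total counts, no count filter or posterior mean counts, where 1528, 1542, 1626 and 1504 genes were called against 1537. With no minimum ratio, 9 members and 10757 genes were called. The Slc11a2 share of the form with the element was 31.6% of TPM, 52.8% of expected counts, and 45.1% among the long pair alone (an alternative chosen after seeing the data). It was 0% when no unpaired base was allowed, since the element then no longer matches by construction, and 30.9% to 32.3% with either library alone. The log2 ratio turned in TPM for Fth1 (0.0598 with pseudocounts of 1 and 0.1) and Fbxl5 (0.00944 with 1 and 0.00983 with 0.1). The ratio of Fth1 to Ftl1 was 0.863 to 0.910 with either library alone and 0.873 with copies included. No paired analysis was possible because there is 1 group. With 2 libraries and 1 donor label, spread between animals could not be estimated, and genes near the floor of 3 counts, such as Hamp, are limited by depth.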
